A study of Mus musculus with 12 samples.

Results

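Caveolae are flask-shaped pits of the plasma membrane, and 8 genes that encode their coat were followed here in mouse inguinal white adipose tissue (iWAT), a fat depot under the skin. The 8 genes were the caveolins Cav1, Cav2 and Cav3, the cavins Cavin1, Cavin2, Cavin3 and Cavin4, and Ehd2. They were found by symbol among 33200 gene rows, and each symbol matched 1 row. The genes were chosen by the family they belong to, with the KO and wild-type counts of these same libraries in view, so the levels and differences of these 8 genes are given as a description. Calls of the fits over all genes are printed for them only beside the share of all genes called. The knockout (KO) mice carried a global CRISPR/Cas-made loss of Nrep (Nrep-/-), a gene for a small neuronal regeneration related protein, and the other group was wild-type C57BL/6. Mice of both groups were kept free of specific pathogens on a standard maintenance diet and were 16 weeks old when tissue was taken. The comparison held 3 KO and 3 wild-type iWAT libraries, described as biological replicates, and asked which transcripts differ with genotype within this fat depot. The deleted part of Nrep and the number of founder lines are not given in the sources used here, and the liver samples of the series were not analysed here.

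A caveolin forms the membrane-embedded scaffold of a caveola, and Cav2 joins it in a complex with Cav1. Cavins are soluble proteins that bind the caveolin scaffold from the cytosol, with Cavin1 needed for a caveola to form at all, and Ehd2 is an ATPase that sits at the neck and holds the pit at the surface. Fat cells and endothelial cells are among the cells richest in caveolae, while Cav3 and Cavin4 are the forms of muscle fibres.

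Nrep was at 2, 2 and 5 counts in KO replicates 1, 2 and 3 and at 1404, 1640 and 1300 counts in wild-type replicates 1, 2 and 3. Counts summed to between 17970451 and 20369345 per library, and levels are given as TMM-normalised CPM (counts scaled to a common library size). KO replicate 2 stood apart from the other KO libraries in its marker genes. Its skeletal muscle markers summed to 746 CPM, against 4488 and 4148 CPM in KO replicates 1 and 3 and 18.6 to 24.6 CPM in wild type. Its mature adipocyte markers summed to 26862 CPM, against 41606 and 47892 CPM in the other KO libraries and 19689 to 26396 CPM in wild type. Values without this library are therefore given beside the fold changes of the caveola genes and of partner genes whose call depends on it. The fit without it called 25.3% of all tested genes, so a low adjusted p in that fit is common.

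Promoter sequences are shown first for the broadly expressed coat genes Cav1, Cav2, Cavin1 and Cavin2. Cavin4, whose level followed that of muscle genes, is shown as well. RefSeq promoter windows of 300 bases (250 before and 50 after a transcript start, build GRCm38.p6) were found for 7 of the 8 genes. Each is written 5′ to 3′ on the gene's strand. Capitals mark, on either strand, the GC box GGGCGG, the CCAAT box CCAAT and the TATA box TATAAA. For a gene with more than 1 start, the first window in the table is printed. The windows are chr6:17306085-17306384 (+ strand) for Cav1, chr6:17280935-17281234 (+ strand) for Cav2, chr11:100970568-100970867 (- strand) for Cavin1, chr1:51288876-51289175 (+ strand) for Cavin2 and chr4:48663264-48663563 (+ strand) for Cavin4.
Cav1: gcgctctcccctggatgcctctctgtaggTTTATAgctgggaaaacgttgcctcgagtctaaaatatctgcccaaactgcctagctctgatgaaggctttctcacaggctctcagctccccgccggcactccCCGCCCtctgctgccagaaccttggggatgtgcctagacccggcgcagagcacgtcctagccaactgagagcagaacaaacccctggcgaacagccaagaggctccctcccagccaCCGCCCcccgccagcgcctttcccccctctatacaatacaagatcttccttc
Cav2: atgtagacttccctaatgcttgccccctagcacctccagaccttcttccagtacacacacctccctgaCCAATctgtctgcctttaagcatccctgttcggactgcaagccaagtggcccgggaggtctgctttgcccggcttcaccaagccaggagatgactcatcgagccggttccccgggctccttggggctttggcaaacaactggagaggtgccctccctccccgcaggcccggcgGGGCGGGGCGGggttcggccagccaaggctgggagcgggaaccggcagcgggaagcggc
Cavin1: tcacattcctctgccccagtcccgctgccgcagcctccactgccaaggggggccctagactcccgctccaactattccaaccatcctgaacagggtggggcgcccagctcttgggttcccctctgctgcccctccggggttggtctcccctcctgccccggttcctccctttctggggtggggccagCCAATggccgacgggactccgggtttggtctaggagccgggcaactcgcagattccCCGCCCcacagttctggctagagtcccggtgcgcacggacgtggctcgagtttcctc
Cavin2: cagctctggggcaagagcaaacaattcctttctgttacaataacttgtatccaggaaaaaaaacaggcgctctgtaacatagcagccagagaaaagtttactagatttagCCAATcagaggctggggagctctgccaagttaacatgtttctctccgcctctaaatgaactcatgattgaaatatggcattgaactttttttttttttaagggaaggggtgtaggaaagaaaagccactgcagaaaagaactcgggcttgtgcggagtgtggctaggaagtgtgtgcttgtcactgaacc
Cavin4: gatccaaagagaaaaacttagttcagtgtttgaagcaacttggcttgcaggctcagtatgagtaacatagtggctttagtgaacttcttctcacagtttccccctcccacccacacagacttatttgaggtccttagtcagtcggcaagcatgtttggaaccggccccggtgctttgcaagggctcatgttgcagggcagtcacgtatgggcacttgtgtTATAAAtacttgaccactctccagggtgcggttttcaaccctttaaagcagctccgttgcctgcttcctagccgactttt

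The windows differed in base composition and in these short motifs. G and C made up 59.3% of the Cav1 window, 64.3% of the Cav2 window, 66.7% of the Cavin1 window, 43.3% of the Cavin2 window and 48.7% of the Cavin4 window, against a median of 52.7% over all 32851 windows. The Cav1 window held 2 GC boxes, whose first bases lay 118 and 2 bases before the start, and a TATA box match 221 bases before it. The Cav2 window held 2 GC boxes that share 1 base, 9 and 4 bases before the start, and a CCAAT box 182 bases before it. Cavin1 had a GC box 7 bases and a CCAAT box 63 bases before the start, and Cavin2 had a CCAAT box 140 bases before it and no GC box. In Cavin4 a TATA box began 30 bases before the start. GC boxes were in 35.7% of all windows, CCAAT boxes in 37.4% and TATA boxes in 13.6%, so matches of this kind are common. They are matches of letters and were not measured as binding sites. Cav2 and Cav1 are adjacent protein-coding genes on chromosome 6.

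Cav1, the caveolin on which caveolae of fat and endothelium depend, was higher in every KO library than in any wild-type one. It had 1375, 1048 and 1590.3 CPM in KO replicates 1, 2 and 3 and 829, 843 and 856 CPM in wild-type replicates 1, 2 and 3. The wild-type libraries lay within 1.03-fold of each other, while the KO libraries spread over 1.52-fold with KO replicate 2 lowest. The means were 1338 ± 273 CPM in KO and 843 ± 13.6 CPM in wild type (SD, n = 3 each). The KO level was 1.59-fold the wild-type level (log2 fold change 0.67, SE 0.196), and 1.83-fold without KO replicate 2. Over the 6 fits that each omit 1 library, the log2 fold change was 0.52 to 0.87.

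Cav2, the caveolin that pairs with Cav1, had 350.2, 204 and 326 CPM in KO replicates 1, 2 and 3 and 172, 149 and 253 CPM in wild-type replicates 1, 2 and 3. The groups overlapped, because KO replicate 2 lay below wild-type replicate 3. The means were 293 ± 78.6 CPM in KO and 191 ± 54.5 CPM in wild type (SD, n = 3 each), a 1.54-fold difference (log2 fold change 0.62, SE 0.267) that was 1.84-fold without KO replicate 2. Over the fits that each omit 1 library the log2 fold change was 0.47 to 0.88.

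**Figure D1:**
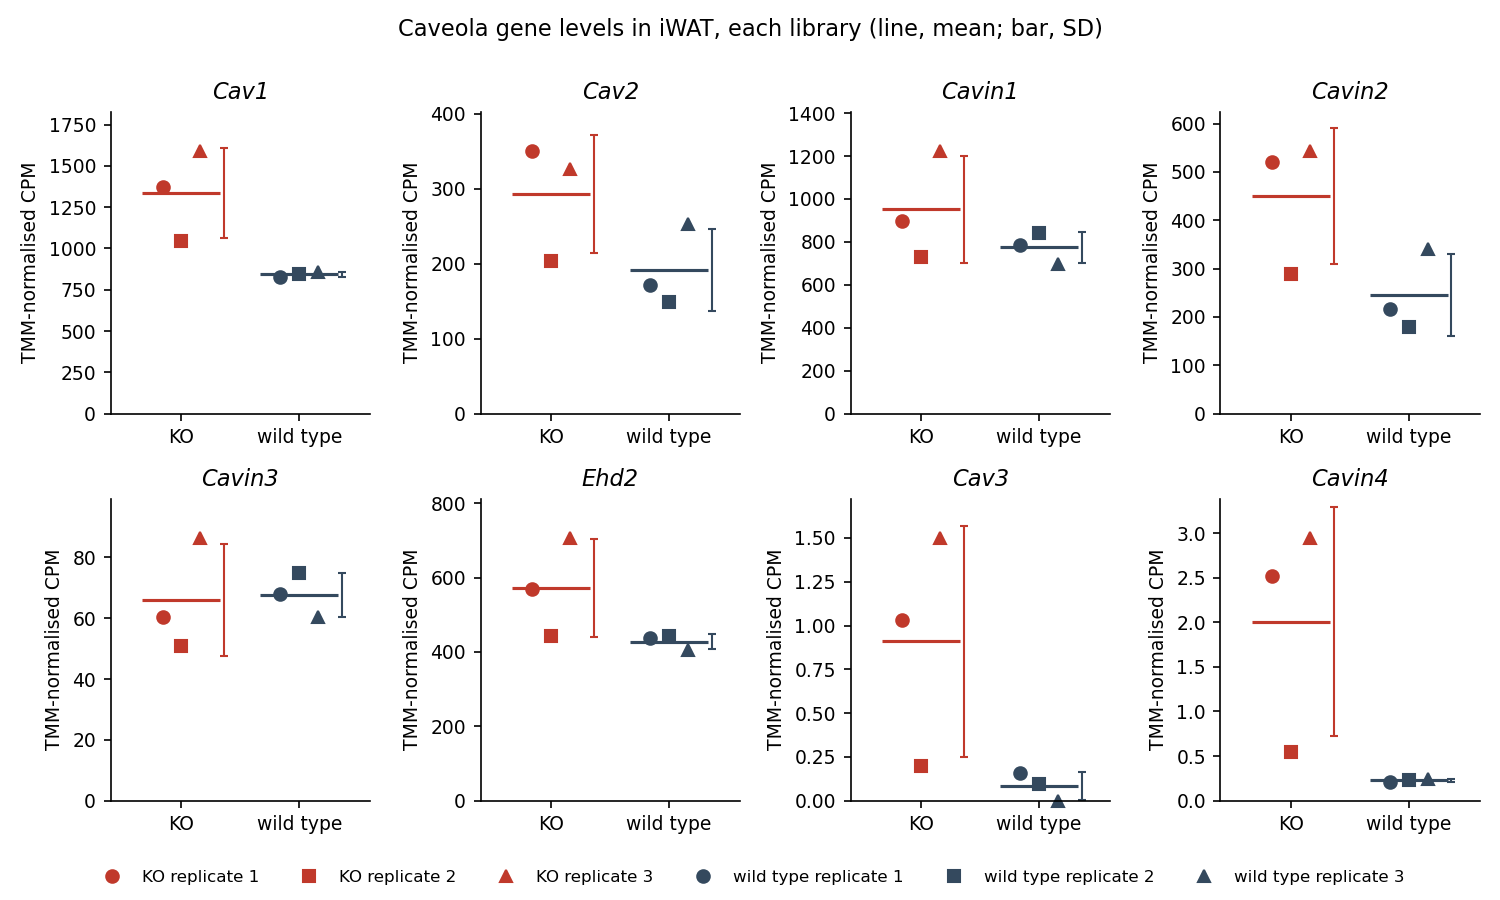
TMM-normalised CPM (vertical axes, linear from 0) of the 8 caveola genes in each iWAT library, with KO on the left and wild type on the right of each panel, a line for the mean and a bar for the SD (n = 3 each). In Cav1 the KO libraries lie at 1048 to 1590.3 CPM above wild type at 829 to 856 CPM, whereas in Cavin3 the groups overlap around means of 65.9 CPM in KO and 67.7 CPM in wild type.

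Cavin1, the cavin without which caveolae do not form, had a smaller fold difference than Cav1, a contrast that was not tested. It had 898, 732 and 1224 CPM in KO replicates 1, 2 and 3 and 787, 839.7 and 696 CPM in wild-type replicates 1, 2 and 3. KO replicate 3 was highest, while KO replicate 2 lay inside the wild-type range. The means were 951 ± 250.4 CPM in KO and 774 ± 72.6 CPM in wild type (SD, n = 3 each), with a log2 fold change of 0.30 (SE 0.219), a 1.23-fold difference that was 1.43-fold without KO replicate 2. Without KO replicate 3 the log2 fold change was 0.07.

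Cavin2, a cavin known to shape caveolae in a tissue-dependent way, had the largest fold difference of the 6 broadly expressed members. It had 519.8, 289 and 544 CPM in KO replicates 1, 2 and 3 and 217, 179 and 342 CPM in wild-type replicates 1, 2 and 3. The order of libraries was the one seen for Cav2 except at the top, with KO replicate 2 below wild-type replicate 3. The means were 451 ± 141 CPM in KO and 246 ± 84.9 CPM in wild type (SD, n = 3 each), a 1.83-fold difference (log2 fold change 0.87, SE 0.316) and 2.25-fold without KO replicate 2. Over the fits that each omit 1 library the log2 fold change was 0.69 to 1.19.

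Cavin3, which links caveolae to signalling proteins, had nearly equal means in the genotypes. It had 60.3, 50.9 and 86.4 CPM in KO replicates 1, 2 and 3 and 68.0, 74.9 and 60.2 CPM in wild-type replicates 1, 2 and 3. The KO libraries held both the highest and the lowest value, and the groups overlapped. The means were 65.9 ± 18.4 CPM in KO and 67.7 ± 7.32 CPM in wild type (SD, n = 3 each). The log2 fold change was -0.04 (SE 0.200), and its sign was not stable: it was 0.17 without KO replicate 2, -0.28 without KO replicate 3, -0.19 when scaled by library totals alone and 0.00 with median-ratio size factors. In GENCODE M21 an opposite-strand gene shares 374 bases of exon with Cavin3, and it had at most 12 counts in any library.

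Ehd2, the neck ATPase, had 568, 444 and 707 CPM in KO replicates 1, 2 and 3 and 437, 442 and 406 CPM in wild-type replicates 1, 2 and 3. The groups did not overlap, but KO replicate 2 and wild-type replicate 2 nearly touched. The means were 573 ± 132 CPM in KO and 428 ± 19.6 CPM in wild type (SD, n = 3 each), a 1.34-fold difference (log2 fold change 0.42, SE 0.194) and 1.55-fold without KO replicate 2. Without KO replicate 3 the log2 fold change was 0.24. At the lowest count of each gene, counting error alone was 0.801% for Cav1, 0.828% for Cavin1, 1.10% for Ehd2, 1.61% for Cavin2, 1.77% for Cav2 and 3.11% for Cavin3, below the coefficient of variation between libraries, which was lowest for Cav1 in wild type at 1.61%.

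Of the 8 genes, 7 passed the filter on low counts and Cav3 did not. In edgeR's quasi-likelihood test over all 16656 tested genes, 0 of the 7 passed an adjusted p of 0.05, where 1.03% of all tested genes did, 0.865% with KO higher and 0.162% with KO lower. At an unadjusted p of 0.05 the count was 4 of 7, against 22.6% of all tested genes. DESeq2 called Cav1, Cavin2 and Cavin4 (10.9% of all tested genes) and limma-voom called 0 (0.0961%), with 4 at an unadjusted p under 0.05. With no filter edgeR called Cav1, Cav3 and Cavin4 (4.14%), and with the replicate number as a block Cavin2 and Cavin4 (7.35%). Without KO replicate 2, edgeR called Cav1, Cav2, Cavin2, Cavin4 and Ehd2, in a fit that called 25.3% of all tested genes. The groups did not overlap, with KO above wild type, for Cav1, Ehd2 and Cavin4 among the tested members, as for 15.2% of all tested genes, and for no member with KO below wild type, as for 13.1%. A positive log2 fold change was found in 6 of 7 tested members and in 44.2% of all tested genes. Cavin4 passed the filter through the KO libraries alone, so it had to differ, and its place in these counts lends no support. Because the members were chosen with this contrast known, nothing is read from these shares. The median over the 7 was 0.62, and that of all tested genes was -0.06. In bulk tissue, a change in the number of cells of a type cannot be told apart from a change of RNA per cell.

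Levels were compared between genes per length, as CPM divided by the merged exon length in GENCODE M21 (RPKM). In wild type Cav1 stood first with 245 ± 3.94 RPKM, followed by Cavin1 with 216 ± 20.2 RPKM (SD, n = 3 each), and the libraries of these genes did not overlap. Ehd2 with 83.6 ± 3.82 RPKM, Cavin2 with 80.5 ± 27.8 RPKM and Cav2 with 57.3 ± 16.3 RPKM formed a middle group in which each neighbour overlapped the next. Cavin3 followed with 40.7 ± 4.403 RPKM and overlapped Cav2, at 36.2 to 45.0 RPKM for Cavin3 and 44.7 to 75.7 RPKM for Cav2. The muscle forms Cavin4, at 0.111 ± 0.00667 RPKM, and Cav3, at 0.0729 ± 0.0693 RPKM, came last and overlapped each other.

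In KO the order by mean RPKM was Cav1 (388 ± 79.3), Cavin1 (265 ± 69.8), Cavin2 (148 ± 46.1), Ehd2 (112 ± 25.7), Cav2 (88.0 ± 23.6), Cavin3 (39.6 ± 11.1), Cavin4 (0.975 ± 0.625) and Cav3 (0.786 ± 0.571), each as mean and SD of 3 libraries. Neighbours whose libraries did not overlap were Cavin1 and Cavin2, Cav2 and Cavin3, and Cavin3 and Cavin4, while the others overlapped. Within each library taken alone, Cav1 was above Cavin1 and both were above all other members in all 6 libraries. Cavin2 was above Ehd2 in KO replicates 1, 2 and 3 and in wild-type replicate 3, and below it in wild-type replicates 1 and 2.

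Ratios within a library remove its scaling and show which members kept step. Cavin1 had 0.653, 0.698 and 0.770 of the Cav1 CPM in KO replicates 1, 2 and 3 and 0.949, 0.997 and 0.813 of it in wild-type replicates 1, 2 and 3. Every KO library was below every wild-type library, and the means were 0.707 ± 0.0588 in KO and 0.9196 ± 0.0951 in wild type (SD, n = 3 each). The ratio of Ehd2 to Cav1 was 0.427 ± 0.0158 in KO and 0.508 ± 0.0298 in wild type, and that of Cavin3 to Cav1 was 0.0489 ± 0.00523 in KO and 0.0804 ± 0.00934 in wild type (SD, n = 3 each), again without overlap.

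Cavin3 and Cavin1 varied together across the libraries of a genotype. Their ratio was 0.0672, 0.0696 and 0.0706 in KO replicates 1, 2 and 3 and 0.0864, 0.0892 and 0.0865 in wild-type replicates 1, 2 and 3. The values of a genotype lay close together although Cavin1 itself spread 1.67-fold over the KO libraries. Cav2 had 0.660 ± 0.0538 of the Cavin2 CPM in KO and 0.787 ± 0.0459 of it in wild type (SD, n = 3 each), with all KO libraries lower. Cav2 against Cav1 did not separate the groups, at 0.255, 0.194 and 0.205 in KO replicates 1, 2 and 3 and 0.207, 0.177 and 0.295 in wild-type replicates 1, 2 and 3. Cavin2 against Cav1 did not either, with means of 0.332 ± 0.0519 in KO and 0.291 ± 0.0965 in wild type (SD, n = 3 each).

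**Figure D2:**
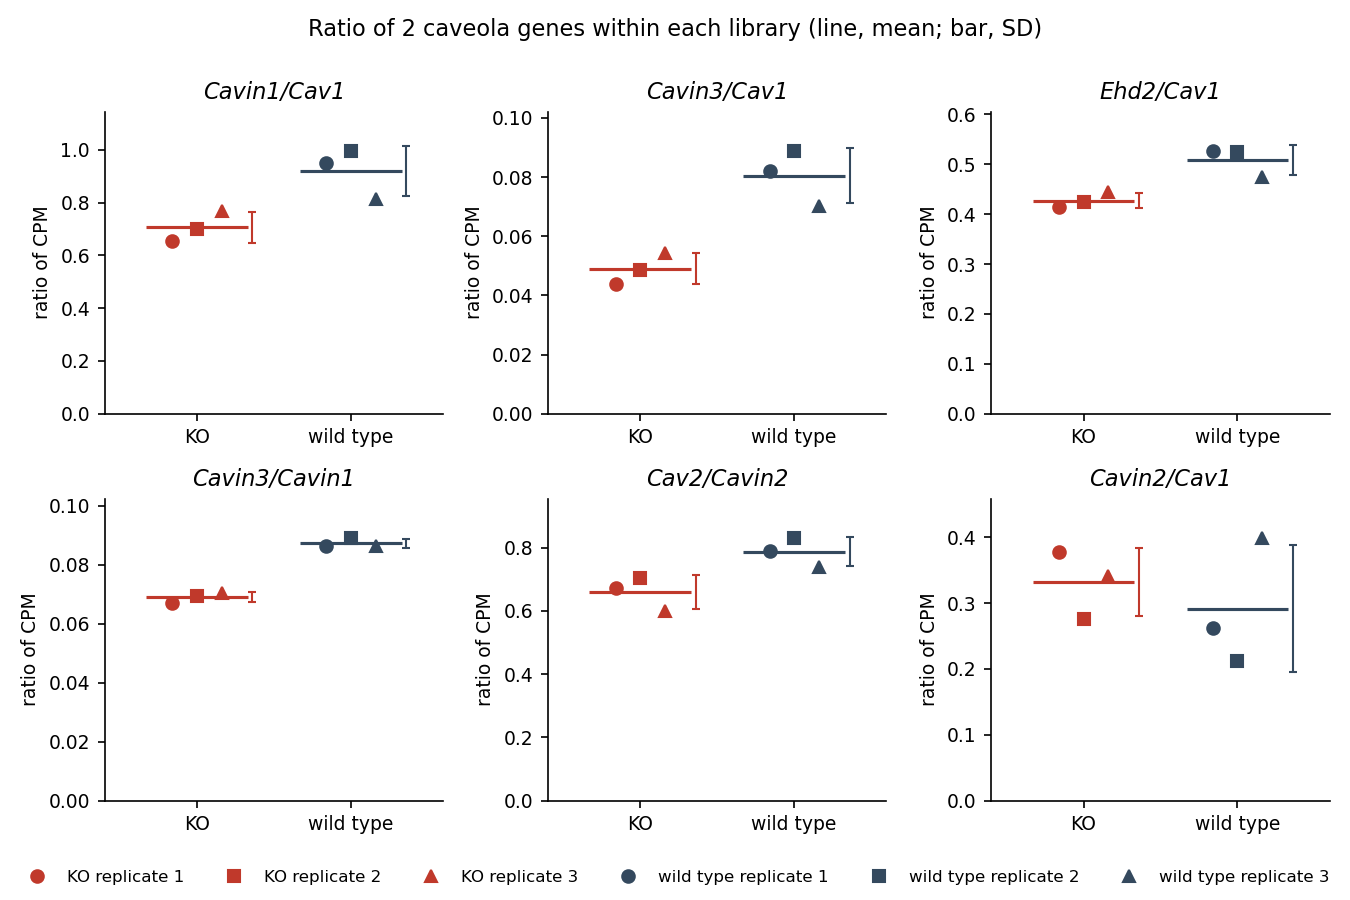
Ratio of the CPM of 2 caveola genes within each library (vertical axes, linear from 0), with KO on the left and wild type on the right of each panel, a line for the mean and a bar for the SD (n = 3 each). Cavin3 against Cavin1 lies at 0.0672 to 0.0706 in KO and 0.0864 to 0.0892 in wild type, while Cavin2 against Cav1 overlaps between the groups.

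The likeness of 2 profiles was measured as the root mean square difference of centred log2(CPM + 0.5) over the 6 libraries, so that a smaller value means a closer pair. Among the 15 pairs of the 6 broadly expressed members, Cavin1 and Ehd2 were closest with 0.0854. Cav1 and Ehd2 followed with 0.138, Cav2 and Cavin2 with 0.153, and Cavin1 and Cavin3 with 0.170. Cavin2 and Cavin3 were farthest apart with 0.622, so the pairs did not follow the division into caveolins and cavins. Outside the family, the profiles nearest to Cav1 among 13338 named genes were those of Ndufs5 (0.0336) and Ndufa5 (0.0365), subunits of respiratory complex I, the peroxisome biogenesis gene Pex19 (0.0372), the growth factor gene Pdgfb (0.0389) and Lrp3 (0.0429), a member of the LDL receptor family. The nearest member, Ehd2, had 482 genes closer to Cav1 than itself. The 6 libraries share the genotype contrast, and many genes follow it.

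The coat genes were set beside markers of the cells that carry caveolae. All 15 mature adipocyte markers, such as Fabp4, the fatty acid binding protein of fat cells, had positive log2 fold changes, or 14 of 15 when scaled by library totals alone. Fabp4 averaged 9347 ± 2441 CPM in KO and 5003 ± 1049 CPM in wild type (SD, n = 3 each; log2 fold change 0.90, edgeR adjusted p = 0.127, and 1.16 with adjusted p = 0.00983 without KO replicate 2). None of the 15 passed in edgeR, 11 had an unadjusted p under 0.05, DESeq2 called 12 and limma-voom 0. Over all tested genes these shares were 1.03%, 22.6%, 10.9% and 0.0961%. Without KO replicate 2 edgeR called 13 of the 15, in a fit that called 25.3% of all tested genes. That library was set apart partly by its low sum of these same markers, so their values and calls without it lend no support. EdgeR called 0 of the 15 when any other library was left out. The median log2 fold change of the list was 0.77, and none of its genes was at 0. Relative to the mean log2 level of these 15 markers, Cav1 was at 0.39 ± 0.14 in KO and 0.45 ± 0.19 in wild type, with overlap, and Cav2 at -1.82 ± 0.20 in KO and -1.72 ± 0.21 in wild type (SD, n = 3 each). On that scale Cavin1 was at -0.12 ± 0.14 in KO and 0.32 ± 0.34 in wild type, and Ehd2 at -0.84 ± 0.12 in KO and -0.53 ± 0.27 in wild type. Cavin3 was the 1 broadly expressed member whose groups did not overlap on it, at -3.96 ± 0.17 in KO and -3.18 ± 0.36 in wild type. Because all 15 markers had positive log2 fold changes, a gene with equal CPM in the genotypes, as Cavin3 nearly was, lies lower in KO on this scale. The share of all genes that separate on it was not computed, so the separation is not read as particular to Cavin3.

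The 12 endothelial markers also had positive log2 fold changes (11 of 12 when scaled by library totals alone), with a median of 0.39, and summed to 1547 to 1896 CPM in KO and 1206 to 1368 CPM in wild type. Cdh5, the cadherin of endothelial junctions, averaged 316 ± 46.2 CPM in KO and 217 ± 11.9 CPM in wild type (SD, n = 3 each; log2 fold change 0.54, edgeR adjusted p = 0.0965, and 0.66 with adjusted p = 0.0148 without KO replicate 2), while Pecam1, an endothelial adhesion molecule, averaged 381 ± 36.8 CPM in KO and 377 ± 31.0 CPM in wild type. None of the 12 passed in edgeR, 7 had an unadjusted p under 0.05, DESeq2 called 4 and limma-voom 0. Over all tested genes these shares were 1.03%, 22.6%, 10.9% and 0.0961%. Without KO replicate 2 edgeR called 6 of the 12, in a fit that called 25.3% of all tested genes. It called 0 of them when any other library was left out. Relative to the mean log2 level of these markers, Cav1 was at 3.61 ± 0.19 in KO and 3.35 ± 0.10 in wild type, and Cavin2 at 2.01 ± 0.42 in KO and 1.52 ± 0.40 in wild type (SD, n = 3 each). The groups of all 6 broadly expressed members overlapped on this scale. How far the cell makeup of the tissue enters the levels of the coat genes was not tested.

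**Figure D3:**
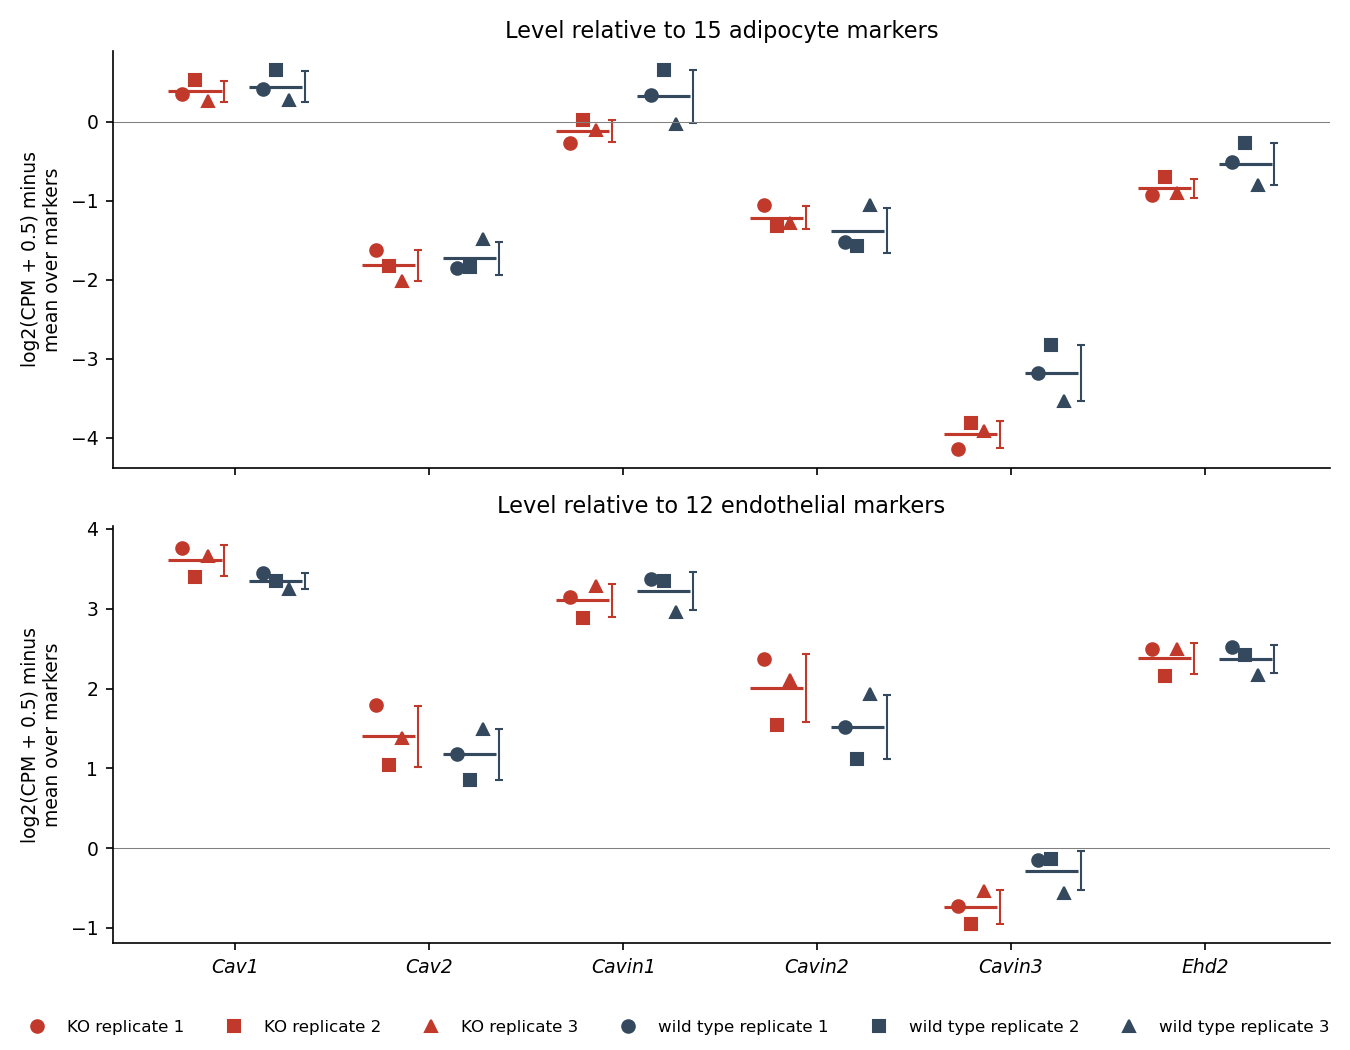
Level of the 6 broadly expressed caveola genes in each library as log2(CPM + 0.5) minus the mean of 15 adipocyte markers (top) or 12 endothelial markers (bottom), with KO left of wild type for each gene, a line for the mean and a bar for the SD (n = 3 each). Cav1 averages 0.39 in KO and 0.45 in wild type beside adipocyte markers, and Cavin3 averages -3.96 in KO and -3.18 in wild type.

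Markers of other cell types did not share one direction. Smooth muscle, cardiac and pericyte markers summed to 878 to 923 CPM in KO and 787 to 841 CPM in wild type. Rgs5, a pericyte gene, averaged 307 ± 54.7 CPM in KO and 209 ± 41.6 CPM in wild type (SD, n = 3 each), a larger difference than that between the mean sums. Its edgeR adjusted p was 0.160, and 0.0177 without KO replicate 2. The smooth muscle genes Acta2 and Tagln had log2 fold changes of -0.35 and -0.28. For Acta2 the edgeR adjusted p was 0.336, and 0.0471 without KO replicate 2. Of the 9 tested genes of this list 5 were positive and 4 negative, with a median of 0.09, and 0 separated the groups. Over all tested genes 15.2% separated them with KO higher and 13.1% with KO lower. Myh6, a cardiac myosin named after its values had been seen, had 0, 0 and 4 counts in KO replicates 1, 2 and 3 and 0 counts in each wild-type library. Fibroblast and progenitor markers summed to 4294 to 7902 CPM in KO and 7356 to 9036 CPM in wild type, and macrophage markers to 2171 to 2371 CPM in KO and 3025 to 4348 CPM in wild type. Of 11 fibroblast and progenitor genes 4 were positive and 7 negative, with a median of -0.47. The groups separated for 1 with KO higher and 3 with KO lower. Of 10 macrophage genes 1 was positive and 9 were negative, with a median of -0.69, and 8 separated the groups with KO lower. In edgeR 0 genes of these 3 lists passed, with 3 of 9, 6 of 11 and 9 of 10 tested genes at an unadjusted p under 0.05. DESeq2 called 0, 2 and 5 of them, and limma-voom called 0 in each list. Over all tested genes the shares were 1.03% in edgeR, 22.6% at that unadjusted p, 10.9% in DESeq2 and 0.0961% in limma-voom. Without KO replicate 2 edgeR called 3, 2 and 0 genes of these lists with KO higher and 1, 2 and 3 with KO lower. That fit called 25.3% of all tested genes.

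The muscle forms were close to undetected in wild-type fat and present at low levels in KO fat. Cav3, the caveolin of muscle fibres, had 18, 4 and 27 counts in KO replicates 1, 2 and 3 and 3, 2 and 0 counts in wild-type replicates 1, 2 and 3. In CPM it was at 1.03, 0.197 and 1.50 in KO replicates 1, 2 and 3 and at 0.160, 0.0933 and 0 in wild-type replicates 1, 2 and 3, where a count of 0 allows up to 0.143 CPM in wild-type replicate 3. KO replicates 1 and 3 were high, and KO replicate 2 was only just above wild-type replicate 1. Over all libraries there were 49 Cav3 counts in KO and 5 in wild type, a ratio of 10.8 with a 95% exact interval of 4.31 to 34.6 that covers counting error only.

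Cavin4, the cavin of muscle fibres, had 44, 11 and 53 counts in KO replicates 1, 2 and 3 and 4, 5 and 5 counts in wild-type replicates 1, 2 and 3. Its level was 2.52, 0.542 and 2.95 CPM in KO replicates 1, 2 and 3 and 0.213, 0.233 and 0.239 CPM in wild-type replicates 1, 2 and 3. The groups did not overlap, and the KO libraries were again ordered with KO replicate 2 lowest. The log2 fold change was 3.09 (SE 0.670), an 8.49-fold difference that was 12.1-fold without KO replicate 2, and the ratio of summed counts was 8.47 (95% exact interval 4.83 to 16.0, counting error only). Cavin4 passed the filter on low counts through the KO libraries alone, so it had to differ, and its calls and separation lend no support.

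Over the KO libraries, Cav3 and Cavin4 were lowest where the skeletal muscle markers were lowest. The 15 markers summed to 4488, 746 and 4148 CPM in KO replicates 1, 2 and 3 and 24.6, 18.6 and 24.2 CPM in wild-type replicates 1, 2 and 3. Ckm, the muscle creatine kinase, was at 567, 98.2 and 486 CPM in KO replicates 1, 2 and 3 and at 0.160, 0 and 0.0478 CPM in wild-type replicates 1, 2 and 3. Per 1000 CPM of the summed markers, Cav3 was at 0.230, 0.264 and 0.362 CPM and Cavin4 at 0.562, 0.726 and 0.710 CPM in KO replicates 1, 2 and 3. Cavin4 thus varied 5.44-fold over the KO libraries as a level, but between 0.562 and 0.726 when set against the markers. In wild type the same measure for Cavin4 was 8.66, 12.5 and 9.86 CPM per 1000 CPM of markers, from 4 or 5 counts a library. For Cav3 it was 6.49, 5.01 and 0 CPM in wild-type replicates 1, 2 and 3, from 3, 2 and 0 counts, so the proportion seen in KO did not hold in wild type. In edgeR 12 of 14 tested muscle markers rose and 0 fell, where 0.865% of all tested genes were higher. Limma-voom called 1, against 0.0961% of all tested genes. Of these 14 markers, 7 reached the level of the low-count filter in no wild-type library and so passed it through the KO libraries, which means that they had to differ, and their calls lend no support. Atp2a1, named after its values had been seen, is not among those 7 but also needed KO libraries to pass. It had 12, 9 and 9 counts in wild-type replicates 1, 2 and 3, and its call is not read as support. EdgeR called 0 without KO replicate 1, KO replicate 3, wild-type replicate 1 or wild-type replicate 2. It called 14 without KO replicate 2, in a fit that called 25.3% of all tested genes. That library was set apart partly by its low sum of these same markers, so this count lends no support. The source of the muscle transcripts in the KO fat was not tested.

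**Figure D4:**
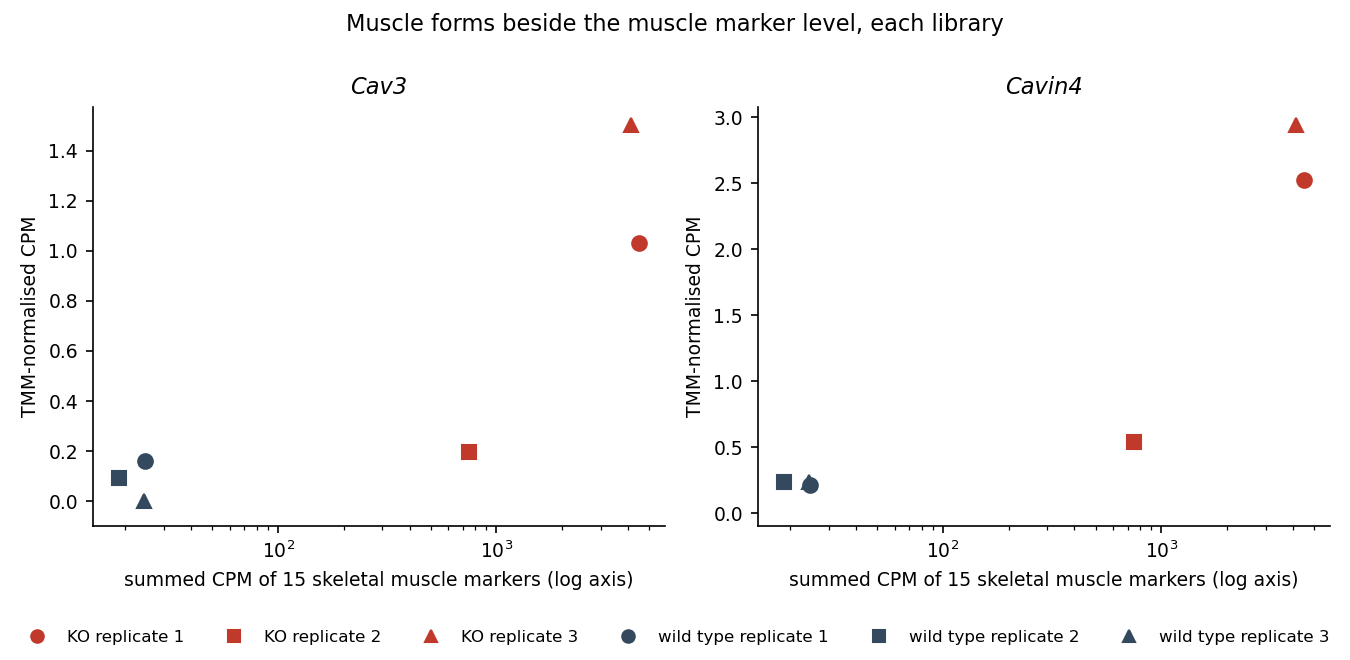
CPM of Cav3 (left) and Cavin4 (right, vertical linear axes) in each library against the summed CPM of 15 skeletal muscle markers (horizontal log axis), with KO in red and wild type in dark blue. KO replicate 2 lies between the other KO libraries and the wild-type ones on the marker axis at 746 CPM, and also in Cavin4 at 0.542 CPM.

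The membrane partners of Cav3 in muscle fibres, such as dysferlin and the dystrophin complex, had 10 positive and 1 negative log2 fold changes among 11 tested genes, or 9 and 2 when scaled by library totals alone. In edgeR 1 rose and 0 fell, where 1.03% of all tested genes passed. An unadjusted p under 0.05 was found in 8, against 22.6% of all tested genes, and the median log2 fold change was 0.45. KO lay above wild type without overlap in 6 of the 11, against 15.2% of all tested genes. Sgca and Popdc1, named after their values had been seen, are among the 6, the 8 and the 10. They had 5, 2 and 3 and 2, 3 and 3 counts in wild-type replicates 1, 2 and 3. Both passed the low-count filter through the KO libraries alone, so they had to differ and lend no support. Trim72, also named after its values had been seen, is among the same counts. It had 51, 16 and 90 counts in KO replicates 1, 2 and 3 and 7, 11 and 1 counts in wild-type replicates 1, 2 and 3. It too needed KO libraries to pass the filter, so its place in these counts is not read as support. Cmya5, a large protein of striated muscle, rose to 22.8 ± 14.3 CPM in KO, against 1.17 ± 0.228 CPM in wild type (SD, n = 3 each; log2 fold change 4.27, edgeR adjusted p = 0.0390). The Cmya5 call was lost with no filter on low counts. DESeq2 called 4 genes of the list and limma-voom 0, against 10.9% and 0.0961% of all tested genes. In edgeR 0 were called without KO replicate 1, KO replicate 3, wild-type replicate 1 or wild-type replicate 2. Without KO replicate 2 it called 8, in a fit that called 25.3% of all tested genes. The gene nearest to Cav3 in profile was Chrna2, an acetylcholine receptor subunit, with a root mean square difference of 0.169, followed by the adenylate kinase gene Ak1 (0.191), the neuropeptide receptor gene Adcyap1r1 (0.205), the small heat shock protein gene Hspb6 (0.206) and the fatty acyl-CoA synthetase gene Acsl1 (0.213). Cavin4 was at 0.287, with 39 genes closer. With so few Cav3 counts, this order rests largely on the pseudocount of 0.5 CPM.

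Proteins that reside in caveolae had mixed directions. Of 16 tested genes 2 rose and 0 fell, with a median log2 fold change of 0.14 and 9 positive and 7 negative values, or -0.00 and 8 of each when scaled by library totals alone. DESeq2 called 6 of them and limma-voom 0. Over all tested genes 1.03% passed in edgeR, 10.9% in DESeq2 and 0.0961% in limma-voom. Slc2a4, the insulin-responsive glucose transporter found in fat cell caveolae, rose to 216, 163 and 275 CPM in KO replicates 1, 2 and 3, against 72.7, 66.1 and 94.6 CPM in wild-type replicates 1, 2 and 3 (log2 fold change 1.49, SE 0.225, edgeR adjusted p = 0.0435). Gpihbp1, which holds lipoprotein lipase on capillary endothelium, rose to 179, 149 and 246 CPM in KO replicates 1, 2 and 3, against 82.3, 69.3 and 95.0 CPM in wild-type replicates 1, 2 and 3 (log2 fold change 1.22, SE 0.212, edgeR adjusted p = 0.0485). In both genes every KO library was above every wild-type library. Both calls were lost without KO replicate 1 or 3 or without wild-type replicate 1 or 2, where edgeR called 0 of the 16, and the Gpihbp1 call also without wild-type replicate 3 (adjusted p = 0.0505) and with a filter of at least 1 CPM in 3 libraries (adjusted p = 0.0518). Without KO replicate 2 edgeR called 10, in a fit that called 25.3% of all tested genes.

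Other residents were named after their values had been seen. Their values without KO replicate 2 come from a fit that called 25.3% of all tested genes. Without KO replicate 1 or 3 edgeR called 0 of the 16. Of the residents that did not pass, 3 had the smallest p. Aoc3, an amine oxidase of fat cell membranes, averaged 898 ± 216 CPM in KO and 457 ± 64.2 CPM in wild type (SD, n = 3 each; log2 fold change 0.97, edgeR adjusted p = 0.0668, and 0.00437 without KO replicate 2). Cd59a, a complement inhibitor anchored in the membrane, averaged 67.2 ± 15.2 CPM in KO and 36.001 ± 6.41 CPM in wild type (SD, n = 3 each; log2 fold change 0.90, edgeR adjusted p = 0.0670, and 0.00446 without KO replicate 2). Hmox1, the inducible heme oxygenase, was at 48.6, 54.2 and 57.4 CPM in KO replicates 1, 2 and 3 and at 229.997, 232 and 63.0 CPM in wild-type replicates 1, 2 and 3 (log2 fold change -1.71, edgeR adjusted p = 0.0855). Its KO libraries were all lower, with wild-type replicate 3 close to them. Cd36, the fatty acid transporter whose surface level depends on caveolae, averaged 3577 ± 1124 CPM in KO and 2105 ± 327 CPM in wild type (SD, n = 3 each; log2 fold change 0.76, edgeR adjusted p = 0.166, and 0.00850 without KO replicate 2). Insr, the insulin receptor, averaged 153 ± 41.9 CPM in KO and 128 ± 12.2 CPM in wild type (SD, n = 3 each; edgeR adjusted p = 0.474, and 0.0217 without KO replicate 2). Plvap, which forms the diaphragm of endothelial caveolae, averaged 106 ± 9.01 CPM in KO and 125 ± 17.3 CPM in wild type (SD, n = 3 each; edgeR adjusted p = 0.336).

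The list of neck partners held proteins that bend the membrane, and also kinases, a receptor and actin-binding proteins. Its log2 fold changes were mostly negative, as were those of all tested genes, of which 55.8% were negative. Of 16 tested genes 12 were negative and 4 positive, with a median of -0.18, or 13 and 3 with a median of -0.32 when scaled by library totals alone. In edgeR 0 passed (1.03% of all tested genes), with 4 at an unadjusted p under 0.05 (22.6%), while DESeq2 called 1 (10.9%) and limma-voom 0 (0.0961%). Without KO replicate 2 edgeR called 7 (25.3% of all tested genes), and it called 0 when any other library was left out. Flna, the actin crosslinker that ties Cav1 to stress fibres, averaged 428 ± 98.04 CPM in KO and 644 ± 118 CPM in wild type (SD, n = 3 each; log2 fold change -0.59, edgeR adjusted p = 0.167, and 0.0218 without KO replicate 2). Ehd1, an EHD relative of Ehd2 in endosome recycling, averaged 139 ± 12.8 CPM in KO and 167 ± 28.0 CPM in wild type, and Dnm2, the dynamin that cuts membrane necks, averaged 129.8 ± 6.28 CPM in KO and 142 ± 6.85 CPM in wild type (SD, n = 3 each). Ehd4, named after its values had been seen, was at 77.5, 87.0 and 89.7 CPM in KO replicates 1, 2 and 3 and at 122, 152 and 108 CPM in wild-type replicates 1, 2 and 3 (log2 fold change -0.59, edgeR adjusted p = 0.0874, and 0.0485 without KO replicate 2). It did not overlap between the groups, with KO lower, where Ehd2 did not overlap with KO higher.

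The list of flotillins, stomatins and other membrane genes held Flot1, Flot2, Stom, Stoml2, Mal, Mal2 and Myadm. All 7 were tested and had positive log2 fold changes, or 6 of 7 when scaled by library totals alone, with a median of 0.29. In edgeR 0 passed (1.03% of all tested genes), with 2 at an unadjusted p under 0.05 (22.6%), while DESeq2 called 2 (10.9%) and limma-voom 0 (0.0961%). Without KO replicate 2 edgeR called 4 (25.3% of all tested genes), and it called 0 when any other library was left out. Myadm, a membrane protein of ordered membrane domains, averaged 170.2 ± 33.8 CPM in KO and 149 ± 7.09 CPM in wild type, and Flot2, a flotillin, 77.7 ± 10.7 CPM in KO and 63.6 ± 4.96 CPM in wild type (SD, n = 3 each; Flot2 edgeR adjusted p = 0.253, and 0.0335 without KO replicate 2). Stom, the stomatin, averaged 154 ± 20.3 CPM in KO and 109.9 ± 2.87 CPM in wild type without overlap (SD, n = 3 each; log2 fold change 0.49, edgeR adjusted p = 0.0923, and 0.0109 without KO replicate 2).

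**Figure D5:**
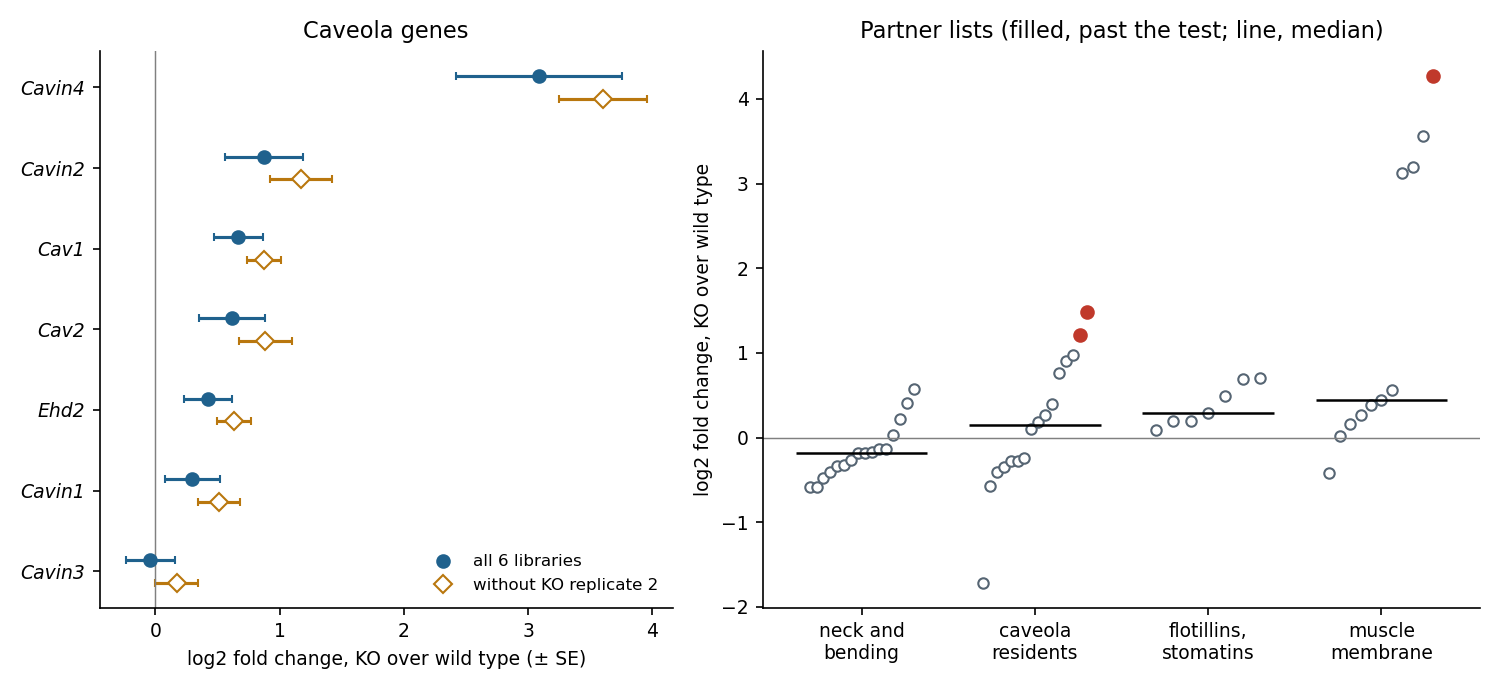
Left, log2 fold change of KO over wild type with its SE for the 7 tested caveola genes, from all 6 libraries (circles) and without KO replicate 2 (diamonds). Right, the same quantity for each tested gene of 4 partner lists, where filled points passed edgeR's test over all genes and lines are list medians, at -0.18 for neck partners and 0.14 for caveola residents.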

How the data were processed

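Estimated counts per gene were deposited by the authors for 6 iWAT libraries, 1 column per library and not scaled. That they are estimated counts was read from the values, of which 9.53% to 11.1% per library were not whole. Poly(A) RNA and a stranded kit were used, per the labels' protocols. The submitters' processing notes for the series name fastp, featureCounts, GRCm38 and GRCm39 without roles; the quantifier and strand setting of this table are not given in the sources used here. Reads shared between similar or overlapping genes are therefore uncertain. Counts were rounded and tested with edgeR 4.0.16 (R 4.3.3; TMM, filterByExpr, robust quasi-likelihood, no covariate, two-sided, Benjamini-Hochberg over 16656 genes, adjusted p of 0.05). The SE is the log2 fold change divided by the square root of F. DESeq2 1.42.0, limma-voom (limma 3.58.1), other size factors and filters, a replicate block and fits with 1 library omitted were alternatives, and the scripts were tested on simulated data, on which edgeR, DESeq2 and limma-voom all made more false calls than the nominal rate, DESeq2 the most. Symbols came from GENCODE M21, matching 26372 of 33200 identifiers (79.4%); Popdc1 was found as Bves through a RefSeq synonym. The limit that a count of 0 allows, 3 counts, was worth 0.140 to 0.172 CPM; intervals cover counting error only. The 8 genes and all lists were chosen with earlier results of these data known. Named genes were the 8, Nrep, from each list up to 4 genes past the test by adjusted p (else the 3 with the highest mean CPM), and the 5 profiles nearest to Cav1 and to Cav3 with a mean of at least 1 CPM; others are marked where named.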

Additional observations from a re-analysis of the deposited data

How the results depend on the processing

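Against 171 genes past the test (144 higher, 27 lower), DESeq2 gave 1823, limma-voom 16, no filter 1370, the replicate block 1225 and an adjusted p of 0.10 gave 1378. Leaving out 1 library gave 1 to 4221, with 1 when KO replicate 1 or wild-type replicate 1 or 2 was omitted, 3 for KO replicate 3, 334 for wild-type replicate 3 and 4221 for KO replicate 2. With library totals as the scale, 129 of the called genes were higher and 49 lower, and the median over all tested genes shifted by -0.13 (log2). Of the caveola members, 0 were called, beside 1.03% of all tested genes. DESeq2 called 3 (10.9%), limma-voom 0 (0.0961%), no filter 3 (4.14%) and the replicate block 2 (7.35%). An adjusted p of 0.10 called 1, beside 1378 of all 16656 tested genes. Leaving out 1 library gave 0 to 5, with 5 in the fit without KO replicate 2, which called 25.3% of all tested genes. The same shares belong to these settings for the lists below. Among neck partners the count of 0 became 1 in DESeq2 and 1 with no filter, and 0 to 7 when 1 library was left out. Among residents the count of 2 became 6 in DESeq2, 0 in limma-voom, 5 with no filter, 1 with at least 1 CPM in 3 libraries and 4 with the replicate block, and 0 to 10 when 1 library was left out. Among flotillins, stomatins and the other membrane genes of their list the count of 0 became 2 in DESeq2 and 1 with no filter. It was 0 to 4 with 1 library left out. Among muscle membrane genes the count of 1 became 4 in DESeq2, 0 in limma-voom, 2 with no filter and 3 with the replicate block, and 0 to 8 with 1 library left out. The log2 fold change of Pecam1 turned to -0.11 with library totals and ran between -0.0309 and 0.0878 over the fits with 1 library omitted, negative when wild-type replicate 1 or 3 was. That of Dcn, a fibroblast gene at 0.00, turned to -0.0116 in limma-voom, -0.15 with library totals and -0.0188 with the replicate block, and ran between -0.13 and 0.25 over the fits with 1 library omitted, negative in 4 of them. The fits without a library hold fewer samples; the cause of the other moves was not tested. The replicate numbers were not taken as pairs: same-numbered KO and wild-type libraries had correlations of deviations from their group means of -0.01, 0.22 and 0.11 over tested genes. Cav1, Cav2, Cavin1, Cavin2, Cavin4 and Ehd2 had positive log2 fold changes in every alternative that tested them, with Cavin1 at 0.07 to 0.51, and these fits reuse the same libraries. With 3 libraries a group, the fold differences of Cavin1 (1.23), Cav2 (1.54), Cavin2 (1.83) and Ehd2 (1.34) lay within the spread between KO libraries. Their highest KO library was 1.67, 1.72, 1.88 and 1.59 times the lowest. The highest wild-type library was 1.21, 1.70, 1.91 and 1.09 times the lowest for the same genes. Such a spread is a ratio of single libraries and is not the error of a fold difference. For Cav1 the fold difference of 1.59 was slightly above the KO spread of 1.52, and for Cavin4 8.49 stood against 5.44. In wild type the spread was 1.03 for Cav1 and 1.12 for Cavin4. Cavin4 entered the test through the KO libraries alone, so its calls, sign and size here lend no support.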
